A study of Mus musculus with 6 samples.

Results

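The genes described here are those of the PI3K, AKT, SGK and mTOR pathway, a named list of 39 mouse genes that also takes in the PREX exchange factors. A gene was measured where an array probe set was annotated to its symbol and to no other. That left 37 of the 39 genes, out of 22180 single-symbol genes tested in all. Where a gene had several such probe sets, the brightest on average was read. Gsk3a and Rps6kb1 were not analysed here.

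Total RNA was measured on 6 one-colour biotin-labelled arrays. There were 3 arrays of SLK-knockout cells and 3 of cells wild-type for SLK, a Ste20-like kinase that takes part in cell migration. Both groups were untreated NeuNDL-derived cells, that is, mouse mammary tumour cells transformed by an activated form of the receptor tyrosine kinase Neu (ErbB2), so the transforming receptor was common to knockout and wild-type cells. Both were grown in DMEM/F12 with serum and a mammary epithelial growth supplement. The series names passages 9, 19 and 29, but no label says which array holds which passage, clone or line. The sources used here do not say how SLK was removed. P-values here measure only the spread between these samples, which may be technical. In cultured cells measured in bulk, fewer cells of a type and less RNA per cell cannot be told apart.

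In this pathway, receptors and their adaptors recruit class I phosphoinositide 3-kinases (PI3K), which make the membrane lipid PIP3. PIP3 draws PDPK1 and AKT to the membrane, and AKT then phosphorylates GSK3, the FOXO transcription factors and TSC2, which releases RHEB to switch on mTOR complex 1. The SGK kinases are relatives of AKT that also answer to PI3K and to mTOR complex 2. ErbB2 is among the receptors that feed PI3K in mammary tumour cells.

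Slk was read first, as a check of the labels. Its log2 signal was 7.14, 7.21 and 7.20 on the knockout arrays, against 8.21, 8.30 and 8.34 on the wild-type arrays, with no overlap (log2 fold change -1.10, SE 0.06, adjusted p = 0.0021). Array medians lay between 3.93 and 3.97, and arrays correlated with each other with r of 0.99 to 0.994 across probe sets. The number of arrays limits the precision of every value.

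Of the 37 measured genes, Deptor rose in knockout cells and Prex2 and Sgk3 fell, while 34 did not pass the test. The test was limma's moderated test on log2 signals, adjusted over all genes by the Benjamini-Hochberg method with a threshold of 0.05, and every adjusted p below comes from it. It called 0.437% of all genes tested, with 0.325% higher and 0.113% lower. At an unadjusted p under 0.05, 5 members had higher and 3 lower means in knockout cells, 21.6% of the members against 10.2% of all genes (5.75% higher and 4.47% lower). On 12 members the knockout and wild-type arrays did not overlap, 7 with knockout above and 5 with knockout below, which is 32.4% against 16.9% of all genes (8.79% above and 8.10% below). The median log2 fold change was 0.02 over the members and 0.00377 over all genes, and the median size without sign was 0.07 in both. The median SE was smaller over the members, 0.0559 against 0.0771 over all genes. Of the 37 members, 32 had a mean signal above that of the median gene. How far the smaller SE bears on these shares was not tested. The list was chosen with results of these data known, so these shares are a description.

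**Figure D1:**
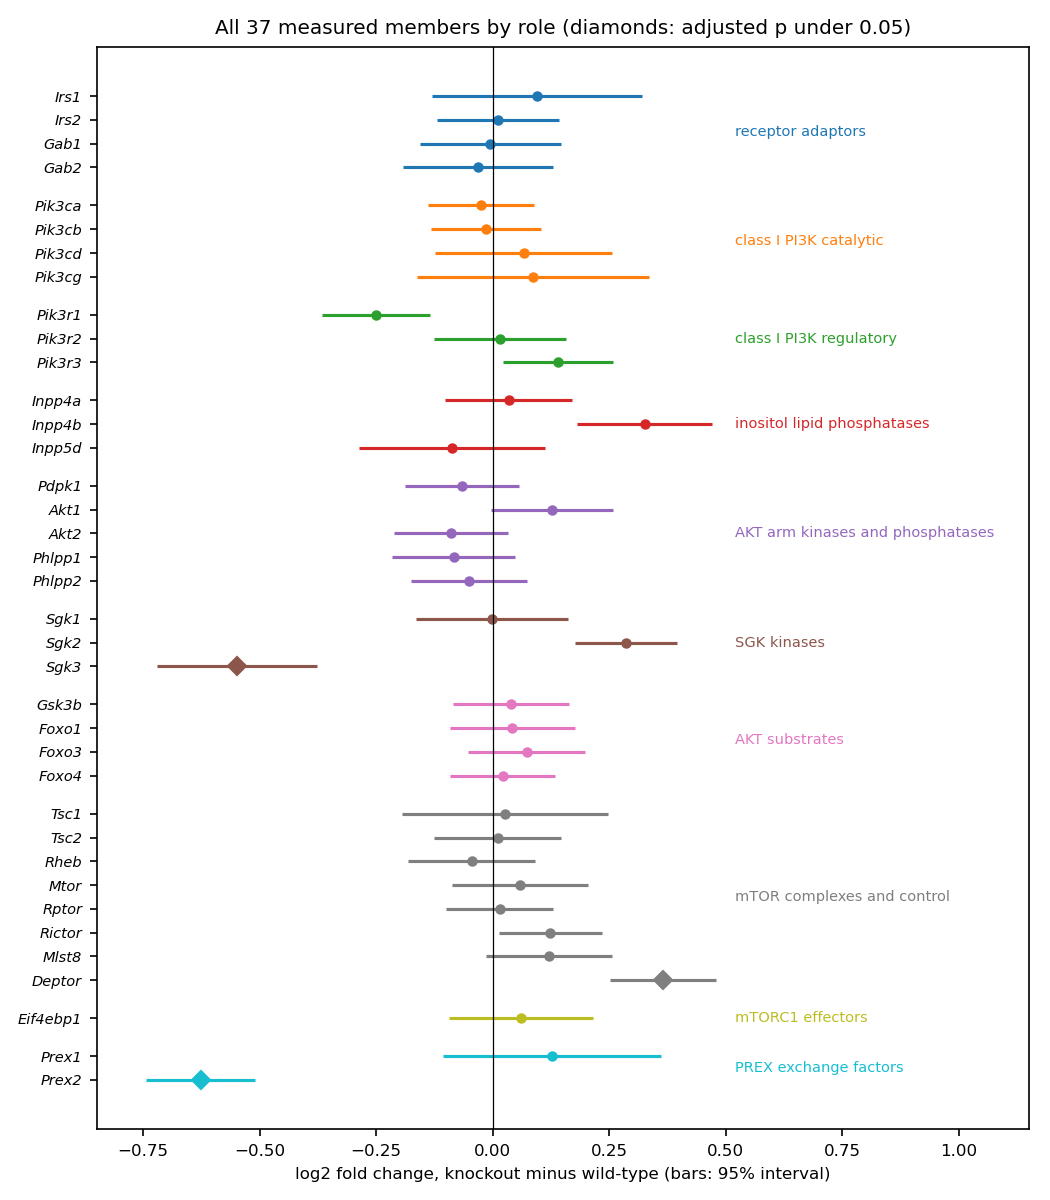
Log2 fold change (knockout minus wild-type, x axis) of each of the 37 measured members, grouped by role from the receptor adaptors at the top to the PREX exchange factors at the bottom. Points are limma estimates, bars are 95% intervals and diamonds mark an adjusted p under 0.05: Deptor at 0.37, Sgk3 at -0.55 and Prex2 at -0.63.

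The receptor adaptors couple receptors to PI3K: IRS1 and IRS2 serve the insulin and IGF1 receptors, and GAB1 and GAB2 serve ErbB and other receptors. None of the 4 passed limma's test, and none had an unadjusted p under 0.05. Their log2 fold changes ran from -0.03 for Gab2 to 0.09 for Irs1. The interval of Gab1, whose product is a docking protein downstream of ErbB receptors, was -0.16 to 0.15 log2 units.

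The class I catalytic subunits showed no member past the test either. Pik3ca and Pik3cb encode the broadly expressed p110 alpha and p110 beta, while Pik3cd and Pik3cg encode p110 delta and p110 gamma, known mainly from leukocytes. The log2 signal of Pik3ca was 8.30, 8.30 and 8.27 on the knockout arrays, against 8.34, 8.33 and 8.28 on the wild-type arrays. That of Pik3cb was 8.85, 8.91 and 8.88 on the knockout arrays, against 8.86, 8.92 and 8.90 on the wild-type arrays. On both genes the groups overlapped, with estimates of -0.03 (95% interval -0.14 to 0.09) for Pik3ca and -0.01 (95% interval -0.13 to 0.10) for Pik3cb. Pik3cd read 3.65, 3.56 and 3.79 on the knockout arrays, against 3.70, 3.54 and 3.56 on the wild-type arrays. Pik3cg read 2.98, 3.29 and 3.22 on the knockout arrays, against 2.93, 3.17 and 3.13 on the wild-type arrays. These groups overlapped too, and both genes gave signals below that of the median gene, where the spread between arrays was wide against the difference. The 12 leukocyte markers examined beside them had mean log2 signals of 4.21 to 4.36 on the knockout arrays and 4.11 to 4.22 on the wild-type arrays. None of the 12 passed limma's test, and 9 had higher and 3 lower means in knockout cells. An unadjusted p under 0.05 was reached by 2, Tyrobp (0.29) and Fcer1g (0.26), 16.7% against 10.2% of all genes. The groups did not overlap on 3 (Tyrobp, Fcer1g and Cd14), all with knockout above, 25% against 16.9% of all genes. Of the 12, 3 had mean signals above that of the median gene. Cd14 was above 87.3% of genes, Cd68 above 76.4% and Cd53 above 50.2%, while Ptprc, the pan-leukocyte marker CD45, was the dimmest, above 9.82%.

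Among the regulatory subunits, which bring the catalytic subunits to receptors and stabilise them, Pik3r1 stood lower on every knockout array without passing the threshold. Pik3r1 encodes p85 alpha and its shorter forms, and its log2 signal was 8.81, 8.85 and 8.82 on the knockout arrays, against 9.03, 9.10 and 9.10 on the wild-type arrays. The difference was -0.25 (SE 0.05, adjusted p = 0.121), a signal 1.19-fold lower in knockout cells. Pik3r3, which encodes p55 gamma, differed the other way: its log2 signal was 6.10, 6.17 and 6.16 on the knockout arrays, against 5.98, 6.01 and 6.02 on the wild-type arrays. The groups did not overlap, but the difference of 0.14 (SE 0.05, adjusted p = 0.4) did not pass. Pik3r2, the gene of p85 beta, read 6.96, 6.99 and 7.01 on the knockout arrays, against 7.06, 6.91 and 6.94 on the wild-type arrays. Its groups overlapped, and its estimate was 0.02 (SE 0.06, adjusted p = 0.954). The 3 regulatory genes thus had 1 lower, 1 higher and 1 near-zero estimate, and no test of the differences between them was run.

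Pik3r1 has 2 annotated start sites in the promoter table, which differ in base composition, and the one probe set read for the gene cannot say which of them the signal came from. The 300 bases around each are shown because Pik3r1 is the regulatory gene with the largest estimate. They are RefSeq sequences of GRCm38.p6, minus strand, with matches to the GC box GGGCGG on either strand in capitals.
Pik3r1, chr13:101768168-101768467: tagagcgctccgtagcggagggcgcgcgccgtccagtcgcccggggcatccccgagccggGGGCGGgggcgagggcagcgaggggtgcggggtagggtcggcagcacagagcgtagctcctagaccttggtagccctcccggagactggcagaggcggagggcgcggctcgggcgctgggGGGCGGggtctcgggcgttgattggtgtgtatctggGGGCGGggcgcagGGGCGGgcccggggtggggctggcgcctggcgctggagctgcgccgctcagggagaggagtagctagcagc
Pik3r1, chr13:101692581-101692880: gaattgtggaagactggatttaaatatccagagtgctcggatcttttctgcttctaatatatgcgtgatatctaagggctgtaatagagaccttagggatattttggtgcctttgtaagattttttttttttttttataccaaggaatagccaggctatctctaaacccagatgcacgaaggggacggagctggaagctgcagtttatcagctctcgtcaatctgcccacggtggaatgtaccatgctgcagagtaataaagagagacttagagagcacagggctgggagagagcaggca
The first window is 75.7% G or C and holds 4 GC boxes, while the second is 43.7% G or C and holds 0. The median window of the table is 52.7% G or C. The GC box was found in 35.7% of all 32851 windows in the table and in 59.2% of the 49 windows of the members. The core motif known for FOXO factors, GTAAACA on either strand, was in neither Pik3r1 window. It occurred in 3.65% of all windows and in 2 of the 49 member windows, those of Akt1 and Pik3cg. The 49 windows belong to 30 of the 37 measured members; Deptor, Eif4ebp1, Foxo4, Gab2, Prex2, Sgk2 and Sgk3 have none in the table. A match describes the letters of the window and is not evidence of binding.

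The inositol lipid phosphatases take phosphates off the lipids that PI3K makes. Inpp4b, whose product removes the 4-phosphate of PI(3,4)P2, read 4.47, 4.61 and 4.47 on the knockout arrays, against 4.23, 4.20 and 4.15 on the wild-type arrays. Every knockout array lay above every wild-type array, a 1.25-fold higher signal, but the difference of 0.33 (SE 0.06, adjusted p = 0.11) did not pass over all genes. Its close relative Inpp4a read 6.60, 6.69 and 6.60 on the knockout arrays, against 6.53, 6.61 and 6.65 on the wild-type arrays. There the groups overlapped and the estimate was 0.03 (SE 0.06, adjusted p = 0.889). Inpp5d, which encodes SHIP1, a 5-phosphatase known mainly from blood cells, had an estimate of -0.09 with overlapping groups. Its interval, -0.29 to 0.11, reached lower than that of any other of the 29 members with an unadjusted p of 0.05 or above.

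On the AKT arm no gene passed. Akt1 read 9.15, 9.11 and 9.06 on the knockout arrays, against 8.96, 9.04 and 8.94 on the wild-type arrays. Akt2 read 7.73, 7.67 and 7.66 on the knockout arrays, against 7.83, 7.75 and 7.76 on the wild-type arrays. The groups were separate on both genes, with opposite signs: 0.13 (SE 0.05, adjusted p = 0.501) for Akt1 and -0.09 (SE 0.05, adjusted p = 0.626) for Akt2. PHLPP1 and PHLPP2 are phosphatases that act on AKT. Phlpp1 read 7.87, 7.86 and 7.74 on the knockout arrays, against 7.91, 7.90 and 7.92 on the wild-type arrays. All knockout values were the lower ones, but the estimate of -0.08 (SE 0.06, adjusted p = 0.678) did not pass. Phlpp2 and Pdpk1, the gene of the kinase that activates AKT, had estimates of -0.05 and -0.07 with overlapping groups.

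Of the 3 SGK kinase genes, Sgk3 fell and the others did not pass. Sgk3 encodes the member with a lipid-binding PX domain, which takes it to endosomes, and it was lower in knockout cells. Its log2 signal (probe set 17211043) was 6.34, 6.13 and 6.28 on the knockout arrays, against 6.86, 6.81 and 6.73 on the wild-type arrays. No knockout array reached the lowest wild-type array, and the gap between the groups was wider than the spread within either of them. Sgk3 averaged 6.25 ± 0.11 in knockout cells and 6.80 ± 0.065 in wild-type cells (SD, n = 3 each), and it fell 1.46-fold (log2 fold change -0.55, SE 0.07, adjusted p = 0.0407). Sgk2 read 4.52, 4.54 and 4.54 on the knockout arrays, against 4.23, 4.24 and 4.27 on the wild-type arrays. All knockout arrays were above all wild-type arrays, with little spread within either group, but the 1.22-fold higher signal (log2 fold change 0.29, SE 0.05, adjusted p = 0.0767) did not pass over all genes. Sgk1, the member known for induction by serum and glucocorticoids, read 8.12, 7.92 and 8.11 on the knockout arrays, against 8.06, 8.06 and 8.03 on the wild-type arrays. These groups overlapped, and the estimate of -0.0012 had a 95% interval of -0.16 to 0.16. The call of Sgk3 was lost whichever single array was left out, with adjusted p of 0.108 to 0.182, and under median centring (0.0555) or with every probe set tested by itself (0.166).

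**Figure D2:**
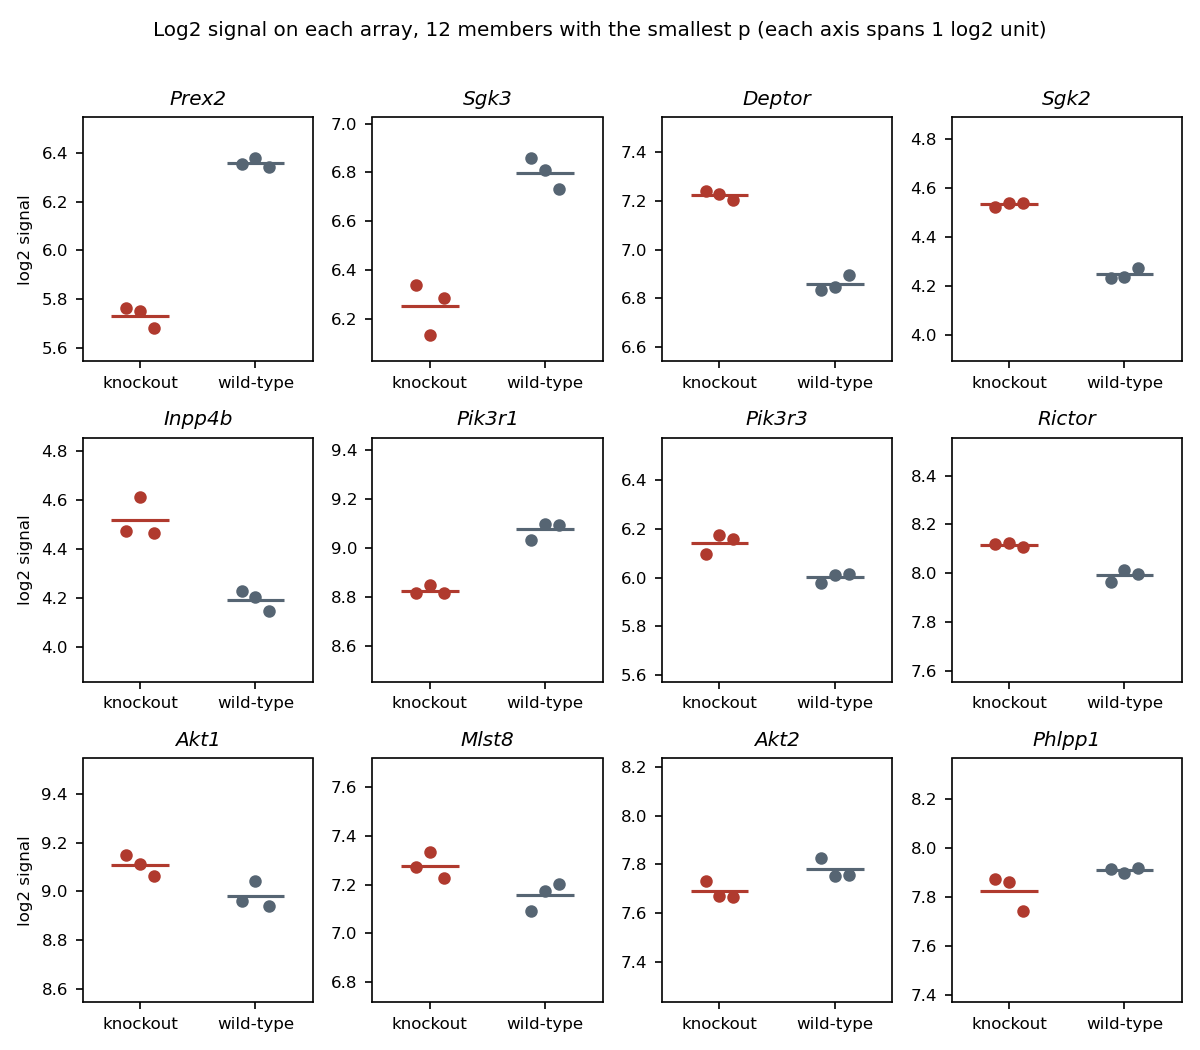
Log2 signal (y axis) on each knockout array (left) and wild-type array (right) for the 12 members with the smallest unadjusted p, in that order; points are arrays, lines are group means and every panel spans 1 log2 unit. On each of the 12 the groups do not overlap, and the widest gaps are those of Prex2 and Sgk3.

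The AKT substrates had small estimates, all above 0. Foxo1, Foxo3 and Foxo4 encode transcription factors that AKT keeps out of the nucleus. Foxo1 read 7.39, 7.44 and 7.30 on the knockout arrays, against 7.37, 7.31 and 7.32 on the wild-type arrays. Foxo3 read 5.71, 5.81 and 5.75 on the knockout arrays, against 5.72, 5.65 and 5.68 on the wild-type arrays. Foxo4 read 5.85, 5.89 and 5.83 on the knockout arrays, against 5.85, 5.85 and 5.81 on the wild-type arrays. The groups overlapped on all of them, and the estimates were 0.04, 0.07 and 0.02 in that order. Gsk3b, the gene of the kinase glycogen synthase kinase 3 beta, had an estimate of 0.04, and none of these 4 substrate genes had an unadjusted p under 0.05.

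Among the 8 genes of the mTOR complexes and their control, Deptor rose. DEPTOR binds mTOR in both of its complexes and is known as an inhibitor. The log2 signal of Deptor (probe set 17311533) was 7.24, 7.23 and 7.20 on the knockout arrays, against 6.83, 6.85 and 6.90 on the wild-type arrays. The lowest knockout array was above the highest wild-type array, and the 3 arrays of each group lay close together. Deptor averaged 7.22 ± 0.02 in knockout cells and 6.86 ± 0.034 in wild-type cells (SD, n = 3 each), a 1.29-fold rise (log2 fold change 0.37, SE 0.05, adjusted p = 0.0407). A second, dimmer Deptor probe set read 5.78, 5.63 and 5.72 on the knockout arrays, against 5.53, 5.42 and 5.45 on the wild-type arrays. It too had all knockout arrays above all wild-type arrays, with a log2 fold change of 0.24 (SE 0.07) in the fit of every probe set. With the mean of both probe sets Deptor lost its call (log2 fold change 0.30, adjusted p = 0.0843), as it did with every probe set tested by itself (0.185). It also lost it whichever single array was left out, with adjusted p of 0.133 to 0.187.

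Rictor, the defining subunit of mTOR complex 2, read 8.12, 8.13 and 8.11 on the knockout arrays, against 7.97, 8.01 and 8.0 on the wild-type arrays. Mlst8, a subunit of both complexes, read 7.27, 7.33 and 7.23 on the knockout arrays, against 7.09, 7.17 and 7.20 on the wild-type arrays. On both genes the knockout arrays lay above the wild-type arrays, but neither difference passed, at 0.12 (SE 0.05, adjusted p = 0.431) for Rictor and 0.12 (SE 0.06, adjusted p = 0.537) for Mlst8. Mtor itself had 0.06 (95% interval -0.09 to 0.21) and Rptor, the defining subunit of complex 1, 0.01 (95% interval -0.10 to 0.13). The upstream genes Tsc1, Tsc2 and Rheb had estimates of 0.03, 0.01 and -0.05, with overlapping groups. Eif4ebp1, whose product is the translation repressor that mTOR complex 1 inactivates, had 0.06 (SE 0.06, adjusted p = 0.805).

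The PREX proteins are exchange factors that load the GTPase Rac with GTP in response to PIP3 and G protein beta-gamma subunits. Prex2 gave the smallest p of the members and stood in position 21 among all 22180 genes. Its log2 signal (probe set 17211131) was 5.76, 5.75 and 5.68 on the knockout arrays, against 6.36, 6.38 and 6.34 on the wild-type arrays. All knockout arrays lay below all wild-type arrays, with a gap several times the spread within either group. Prex2 averaged 5.73 ± 0.043 in knockout cells and 6.36 ± 0.018 in wild-type cells (SD, n = 3 each), and it fell 1.54-fold (log2 fold change -0.63, SE 0.05, adjusted p = 0.00722). Its relative Prex1 read 4.35, 4.45 and 4.22 on the knockout arrays, against 4.07, 4.37 and 4.20 on the wild-type arrays. There the groups overlapped, and the estimate was 0.13 (SE 0.10, adjusted p = 0.722) with a 95% interval of -0.11 to 0.36. The difference between the Prex2 and Prex1 estimates was not tested. Without single arrays, the adjusted p of Prex2 was 0.0468 to 0.0583. Its call was kept without knockout replicate 2 (0.0468) or 3 (0.0475) and lost without knockout replicate 1 (0.0583) or wild-type replicate 1 (0.0507), 2 (0.0546) or 3 (0.0536).

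The 2 members that fell are near neighbours on mouse chromosome 1, a property the choice of the list did not use. In the gene order of RefSeq's GRCm38.p6 annotation, 9 tested genes lie between Sgk3 and Prex2: Mcmdc2, Snhg6, Snord87, Tcf24, Ppp1r42, Cops5, Cspp1, Arfgef1 and Cpa6. None of the 9 passed limma's test or had an unadjusted p under 0.05, and their log2 fold changes ran from -0.10 for Snord87 to 0.11 for Snhg6. Cops5, a subunit of the COP9 signalosome, had -0.05 (95% interval -0.20 to 0.11). Of the 5 tested genes on each outer side none passed either. Of these 10, 3 had an unadjusted p under 0.05, against 10.2% of all genes: Adhfe1 at 0.21, Mybl1 at 0.16 and Sulf1 at -0.15. Among the 9 genes between, the groups did not overlap only on Snord87, with knockout below. Among the 10 outer genes this held only for Mybl1 (knockout above) and Sulf1 (knockout below), against 16.9% of all genes. Of the 21 pairs of members next to each other on a chromosome, only Gab1 with Inpp4b (1 tested gene between) and Mlst8 with Tsc2 (5 between) lay closer in this order. This neighbourhood was examined after the values of Sgk3 and Prex2 were seen.

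**Figure D3:**
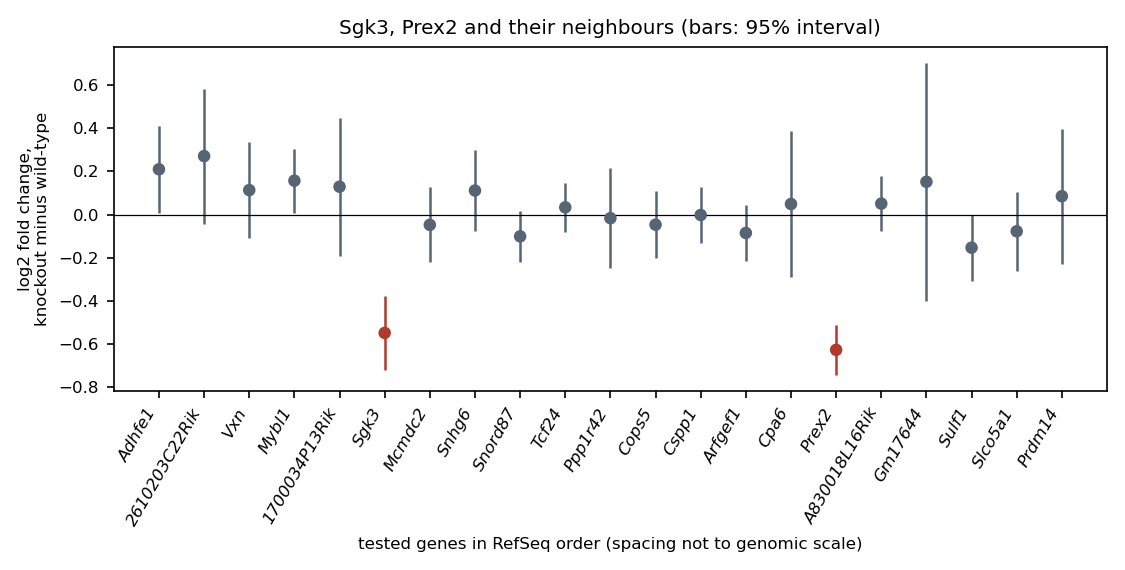
Log2 fold change (knockout minus wild-type, y axis) of Sgk3, Prex2, the 9 tested genes between them and the 5 tested genes on each outer side, in RefSeq gene order with equal spacing (x axis). Points are limma estimates with 95% intervals; Sgk3 (-0.55) and Prex2 (-0.63) lie below all of the others, which run from -0.15 to 0.27.

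For the 34 members that did not pass, the intervals limit how large a difference these arrays leave possible. In 23 of them the 95% interval stayed within 0.25 log2 units of 0 on both sides. The interval reaching furthest down was that of Pik3r1, to -0.37, and the one reaching furthest up was that of Inpp4b, to 0.47. Of the 37 measured members 5 (Pik3cd, Pik3cg, Prex1, Inpp4b and Sgk2) had a mean signal below that of the median gene. A low signal is not evidence of absent RNA, since probe sets were not filtered on detection.

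Further genes of the pathway were read from 6 lists holding 133 measured genes beside the members. None of the 133 passed limma's test over all genes. At an unadjusted p under 0.05, 6 had higher and 10 lower means, 12% of the lists against 10.2% of all genes. The groups did not overlap on 35 of the 133, 26.3% against 16.9% of all genes. Their median log2 fold change was -0.02, and their median SE was 0.0594 against 0.0771 over all genes.

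Among 23 further lipid kinase and phosphatase genes, the smallest p belonged to Pik3r5, the p101 regulatory subunit that pairs with p110 gamma. Its log2 signal was 8.70, 8.82 and 8.67 on the knockout arrays, against 8.45, 8.45 and 8.31 on the wild-type arrays. The groups were separate, at 0.33 (SE 0.07, adjusted p = 0.146). Pip4k2a, a phosphatidylinositol 5-phosphate 4-kinase, was also separate, at 0.22 (SE 0.05, adjusted p = 0.178). These were the only 2 of the 23 without overlap, 8.7% against 16.9% of all genes. They were also the only 2 with an unadjusted p under 0.05, 8.7% against 10.2% of all genes. With an intensity trend in the variance estimate Pik3r5 and Pip4k2a passed (adjusted p = 0.00595 and 0.0118), as they did without the dimmest 50% of genes (0.0297 and 0.0292).

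Of 35 further regulators of the mTOR complexes, 25 had lower and 10 higher means in knockout cells, with a median of -0.06. The groups did not overlap on 12 of the 35, 4 with knockout above and 8 below, 34.3% against 16.9% of all genes. An unadjusted p under 0.05 was reached by 2, 5.71% against 10.2% of all genes. Both genes with the lower p encode subunits of the Ragulator complex, which anchors mTOR complex 1 at the lysosome. Lamtor3 had -0.13 (SE 0.05, adjusted p = 0.428) and Lamtor4 had -0.19 (SE 0.07, adjusted p = 0.451). Of 17 further effectors of mTOR and SGK, 1 had a higher and 3 a lower mean at an unadjusted p under 0.05. That was 23.5% of the list against 10.2% of all genes. The groups did not overlap on 6, 35.3% against 16.9% of all genes. Ndrg1, whose product is phosphorylated by SGK1, had 0.12 (SE 0.05, adjusted p = 0.438), and Tfeb, a lysosomal transcription factor that mTOR complex 1 holds in the cytoplasm, had -0.14 (SE 0.05, adjusted p = 0.395). With probe sets averaged per gene, Ndrg1 had 0.09 (SE 0.05, adjusted p = 0.653) and Lamtor3 -0.10 (SE 0.05, adjusted p = 0.566).

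The 23 measured genes known as FOXO targets held 15 higher and 8 lower means, with a median of 0.04. An unadjusted p under 0.05 was reached by 3 of them, 1 higher and 2 lower, 13% against 10.2% of all genes. The groups did not overlap on 10, 4 with knockout above and 6 below, 43.5% against 16.9% of all genes. The smallest p values were those of Fbxo32, a ubiquitin ligase subunit, and Pdk4, a pyruvate dehydrogenase kinase, which differed in opposite directions. Fbxo32 had 0.23 (SE 0.06, adjusted p = 0.245) and Pdk4 had -0.26 (SE 0.07, adjusted p = 0.253), each with separate groups. Of 16 genes of ATF4 and amino acid metabolism known to respond to mTOR complex 1, Psph, a serine synthesis enzyme, had -0.18 (SE 0.07, adjusted p = 0.427) and the cystine transporter gene Slc7a11 had 0.21 (SE 0.08, adjusted p = 0.429). With its probe sets averaged Slc7a11 had 0.07 (SE 0.10, adjusted p = 0.879). Psph and Slc7a11 were the only 2 of the 16 with an unadjusted p under 0.05, 12.5% against 10.2% of all genes. They were also the only 2 without overlap, 12.5% against 16.9% of all genes. Of 21 Rac GTPases and exchange factors other than the PREX genes, Dock1 had 0.34 (SE 0.08, adjusted p = 0.217) and Arhgef6 had -0.38 (SE 0.09, adjusted p = 0.241). On both of these the groups did not overlap, and Dock1 passed with an intensity trend (adjusted p = 0.0391). Over the 21, 4 had groups without overlap, 2 with knockout above and 2 below, 19% against 16.9% of all genes. Of the 21, 3 had an unadjusted p under 0.05, 14.3% against 10.2% of all genes.

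Markers of cell types were read beside these values. The 9 measured mammary epithelial markers had a mean log2 signal of 7.41 to 7.46 on the knockout arrays and 7.58 to 7.62 on the wild-type arrays. Of the 9, Krt14 (-0.66) and Cdh1 (-0.43) fell, while Krt8 and Krt18 gave signals above 99.1% and 99.3% of genes and had estimates of 0.15 and 0.14. An unadjusted p under 0.05 was reached by 6 of the 9 (66.7%, against 10.2% of all genes), 2 higher and 4 lower in knockout cells. The higher ones were Krt8 and Krt18 (adjusted p = 0.366 and 0.399), both with all knockout arrays above all wild-type arrays. The lower ones were Krt14, Cdh1, Epcam (-0.35, adjusted p = 0.0826) and Cldn7 (-0.48, adjusted p = 0.11), each with all knockout arrays below all wild-type arrays. Erbb3 (0.12, adjusted p = 0.624) also had all knockout arrays above, so 7 of the 9 did not overlap (77.8%, against 16.9% of all genes). Erbb2 (-0.05) and Elf5 (0.08) had overlapping groups. Of 8 adipocyte markers Fabp4 rose (0.92), and the list's mean signal was 3.89 to 4.01 on the knockout arrays and 3.83 to 3.87 on the wild-type arrays. That gap rested on Fabp4: the other 7 had a mean of 3.41 to 3.56 on the knockout arrays and 3.45 to 3.56 on the wild-type arrays, a mean taken after the values were seen. Over the 8, 4 had higher and 4 lower means with a median of -0.03. Of these 8, 4 had an unadjusted p under 0.05 (50%, against 10.2% of all genes), 3 higher and 1 lower. Beside Fabp4, Car3 (0.29, adjusted p = 0.459) and Lep (0.26, adjusted p = 0.465) were higher, and Cidec (-0.31, adjusted p = 0.136) was lower. Separate groups were seen on 3 (37.5%, against 16.9% of all genes): Fabp4 and Car3 with knockout above and Cidec with knockout below. With single arrays left out the 3 called markers had adjusted p of 0.0453 to 0.0725 for Krt14, 0.0984 to 0.127 for Cdh1 and 0.0426 to 0.137 for Fabp4. No fibroblast or endothelial marker, of 8 each, passed limma's test, and 4 fibroblast (50%) and 3 endothelial markers (37.5%) had an unadjusted p under 0.05. The groups did not overlap on 5 fibroblast markers (62.5%, against 16.9% of all genes) and 2 endothelial markers (25%). The 5 differed in direction: Dcn (0.43) and Pdgfra (0.10) were higher, and Col1a1 (-0.33), Col1a2 (-0.19) and Col3a1 (-0.19) lower in knockout cells. The 2 endothelial markers, Tek (-0.22) and Kdr (-0.32), were both lower. Cldn5 (0.17), the other endothelial marker with an unadjusted p under 0.05, was higher with overlapping groups. Over the 8 endothelial markers 4 had higher and 4 lower means, with a median of -0.01. The mean of the fibroblast markers was 5.04 to 5.12 on the knockout arrays and 5.09 to 5.14 on the wild-type arrays. The mean of the endothelial markers was 3.52 to 3.61 on the knockout arrays and 3.55 to 3.65 on the wild-type arrays. The part of the differences in epithelial markers and Fabp4 in those of Prex2, Sgk3 and Deptor was not tested.

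**Figure D4:**
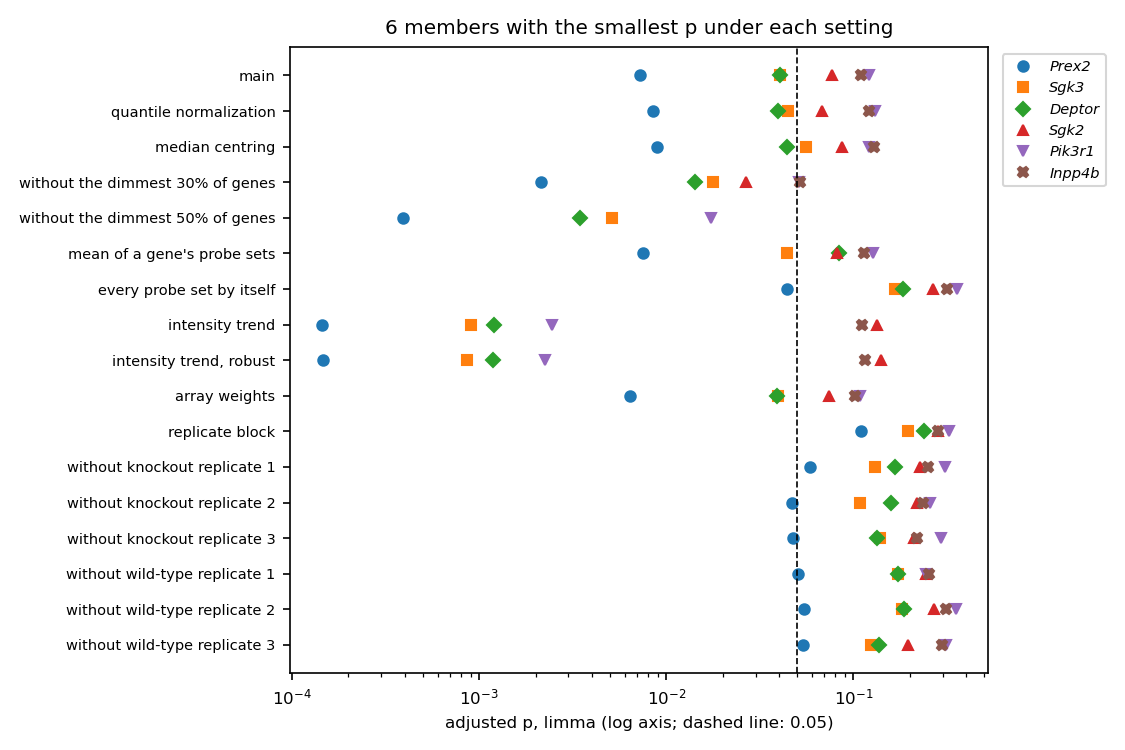
Adjusted p (x axis, log scale) of the 6 members with the smallest p under the main setting and each alternative setting (rows), with the threshold of 0.05 as a dashed line. Prex2 lies left of the line or close to it except with the replicate block (0.11), Sgk3 and Deptor cross it, and Sgk2 and Inpp4b have no point where the dimmest 50% of genes were left out.

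Across the alternative settings the sign of the 3 called members never changed. Prex2 passed under 11 of 16 settings, with a log2 fold change of -0.64 to -0.60, and Sgk3 and Deptor passed under 7 of 16 each. Sgk3 ranged from -0.59 to -0.49 and Deptor from 0.30 to 0.38. Pik3r1 passed under 3 of 16 settings, those with an intensity trend, plain (adjusted p = 0.00246) or robust (0.00224), and that without the dimmest 50% of genes (0.0174). Sgk2 passed under 1 of 15, that without the dimmest 30% of genes (0.0267), and Inpp4b under 0 of 15, with a lowest adjusted p of 0.0519.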

How the data were processed

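The deposited table holds the authors' log2 signals of 41345 probe sets on 6 arrays. The submitters' processing notes name Affymetrix Expression Console 1.4.1.46. How background was corrected, arrays normalized and probes summarised, the genome build and the log base are not given in the sources. The base was taken as 2 because the highest value (12.4) exceeds the natural log of a 16-bit scanner's limit (11.1). Nothing more was normalized. The platform annotation gave 23521 probe sets 1 symbol, 1814 several and 16010 none. All 37 members matched RefSeq (GRCm38.p6) by gene identifier.

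Groups came from the titles. limma 3.58.1 in R 4.3.3 (lmFit, eBayes, no covariate, two-sided, no filter) was fitted on all 22180 genes, after a test on simulated data. Fold changes are knockout minus wild-type, SEs are moderated and intervals are 95%. The members, lists and tests were chosen with earlier results of these data known. Values on every array are given for called members, the 12 with the smallest p and their listed relatives, and 2 genes are named per further list. The 16 alternatives were 2 normalizations, 2 dim-gene filters, 2 probe set rules, 2 variance priors, array weights, a replicate block and leaving out each array.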

Additional observations from a re-analysis of the deposited data

How the results depend on the processing

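The log2 fold change of Slk kept its sign and its call under all 16 settings. Over all genes 97 were called, against 206 without the dimmest 30% of genes, 341 without the dimmest 50%, 441 with an intensity trend, 443 with a robust trend and 29 with every probe set by itself. Of the members 1 was called higher and 2 lower. These became 2 higher without the dimmest 30%, 3 lower without the dimmest 50% and with either trend, 1 lower with median centring, 0 higher with probe sets averaged per gene, and 0 higher and 1 lower with every probe set by itself, which adjusts over more features. With single arrays left out there were 0 members higher, 0 to 1 lower and 16 to 28 genes called. With every probe set by itself SEs also rose: 0.0561 against 0.049 for Prex2, 0.078 against 0.0715 for Sgk3 and 0.0549 against 0.0477 for Deptor. The cause of these shifts was not tested. Same-numbered arrays did not deviate together (r of -0.066 to 0.044), so the numbers were not taken as pairs. With a replicate block 6 genes were called over all, with 0 members higher and 0 lower (adjusted p of Prex2 0.11, Sgk3 0.195, Deptor 0.238). No named member that passed under any setting changed sign. Signal near background limits the dimmest members.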

Other observations

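Beside Deptor, 2 other members had a second single-symbol probe set, in both cases dimmer than the one read. That of Irs1, the gene of an insulin receptor substrate, read 3.20, 3.54 and 3.79 on the knockout arrays, against 2.81, 3.20 and 3.02 on the wild-type arrays. Its log2 fold change was 0.50 (SE 0.17, unadjusted p = 0.0279, limma's adjusted p = 0.582 over all probe sets), while the brighter probe set gave 0.09. The second probe set of Foxo1, the gene of a forkhead factor, gave 0.07 (SE 0.07), against 0.04 for the brighter one.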
